A study of Mus musculus with 10 samples.

Results

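Slc5a3 and 5 other genes of the response to osmotic stress, Nfat5, Slc38a2, Slc6a6, Akr1b3 and Slc6a12, were followed in mouse lung with and without the airway secretory gene Bpifb1. The genes were found in the deposited count table by matching its Ensembl identifiers to symbols in GENCODE release M21. All 6 were among the 47333 genes of the table, and 5 of the 6 were among the 18024 genes with enough counts to be tested. The set was proposed from how its members varied together over these mice and from their values in KO and WT mice. Those values are therefore given as a description, without a test.

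Cells in a hypertonic medium lose water and shrink, and then take up or make small organic molecules, called osmolytes, that restore their volume without disturbing proteins. NFAT5 (also called TonEBP) is the transcription factor that switches on the genes for this uptake and synthesis. Slc5a3 brings in myo-inositol together with sodium, Slc6a6 brings in taurine, Slc6a12 brings in betaine, Akr1b3 (aldose reductase) makes sorbitol from glucose, and Slc38a2 brings in neutral amino acids. In the lung, the airway and alveolar surfaces are covered by a thin liquid layer whose salt and water the epithelium controls.

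Lung RNA (right middle lobe) came from 10 C57BL/6J mice that were 12 weeks old and untreated. The 5 KO mice lacked Bpifb1 and comprised 1 male (replicate 1) and 4 females, and the 5 WT mice comprised 2 males (replicates 2 and 3) and 3 females. How the KO allele was made is not given in the sources used here, and no mouse was exposed to an osmotic or other challenge. The comparison of KO with WT asks which genes differ in the unchallenged lung when Bpifb1 is lost.

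The libraries held 21357452 to 28321361 estimated counts. Bpifb1 read 0.217 to 1.26 CPM (a gene's counts per 1000000 counts of the library) in KO mice and 28.1 to 79.6 CPM in WT mice, and it passed the test (log2 fold change -6.55, SE 0.56, edgeR quasi-likelihood adjusted p 0.0275). The alveolar type 2 cell gene Sftpc (12650 to 17400 CPM) and the club cell gene Scgb1a1 (21140 to 27530 CPM) were abundant in every mouse. Of 15 lists of cell type markers, 0 had ranges of mean log2 CPM that separated KO from WT mice, and the alveolar type 1 list of 5 genes separated males (9.18 to 9.26) from females (9.01 to 9.12). KO replicate 5, labelled female, went against its label in part: its Xist level of 1.78 CPM was beside that of the males (1.29 to 1.73 CPM) and far under the other 6 females (274 to 407 CPM), while its Y-linked genes had 0 counts against 2470 to 3441 in the males. With this mouse kept as female, Xist did not pass the sex test (log2 fold change of males over females -7.58, SE 1.70, edgeR quasi-likelihood adjusted p 0.1115). Sex differences of the members are given with and without this mouse.

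The promoter windows of Slc5a3, Nfat5 and Slc38a2 are shown because these are the members with a positive correlation over the mice, and that of Slc6a12 because it alone among the members' windows holds the full NFAT5 motif. Windows run from 250 bases before to 50 bases after a start of transcription, are taken from RefSeq on GRCm38.p6 and are written 5′ to 3′ on the gene's own strand. Lower case is used throughout except for a match to the tonicity-responsive element (TonE), the motif bound by NFAT5. They lie at chr16:92058072-92058371 (plus strand) for Slc5a3, chr8:107293220-107293519 (plus) for Nfat5, chr15:96699679-96699978 (minus) for Slc38a2 and chr6:121342324-121342623 (plus) for Slc6a12.
Slc5a3: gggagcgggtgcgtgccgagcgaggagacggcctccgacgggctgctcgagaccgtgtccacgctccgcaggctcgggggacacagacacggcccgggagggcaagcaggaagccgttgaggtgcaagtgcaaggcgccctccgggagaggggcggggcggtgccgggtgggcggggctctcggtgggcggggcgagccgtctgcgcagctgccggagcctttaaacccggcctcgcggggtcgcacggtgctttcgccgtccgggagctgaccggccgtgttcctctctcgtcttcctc
Nfat5: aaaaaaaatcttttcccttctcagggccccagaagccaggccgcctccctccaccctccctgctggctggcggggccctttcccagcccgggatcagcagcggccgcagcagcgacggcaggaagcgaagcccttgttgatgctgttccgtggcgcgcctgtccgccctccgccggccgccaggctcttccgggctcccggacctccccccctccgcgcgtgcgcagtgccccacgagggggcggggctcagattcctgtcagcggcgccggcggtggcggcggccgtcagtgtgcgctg
Slc38a2: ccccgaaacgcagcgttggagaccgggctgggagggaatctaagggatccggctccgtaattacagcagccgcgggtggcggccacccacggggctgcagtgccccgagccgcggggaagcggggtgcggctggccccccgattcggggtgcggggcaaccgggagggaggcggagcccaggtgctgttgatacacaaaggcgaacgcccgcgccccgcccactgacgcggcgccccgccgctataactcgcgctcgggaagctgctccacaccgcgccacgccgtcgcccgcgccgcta
Slc6a12: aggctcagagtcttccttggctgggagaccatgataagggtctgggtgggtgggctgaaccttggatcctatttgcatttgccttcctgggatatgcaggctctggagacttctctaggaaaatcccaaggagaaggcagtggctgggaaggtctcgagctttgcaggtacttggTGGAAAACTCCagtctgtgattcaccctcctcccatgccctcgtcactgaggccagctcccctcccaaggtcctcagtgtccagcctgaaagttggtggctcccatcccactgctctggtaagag
The TonE motif, its core TGGAAA and the heat shock element GAANNTTC were searched on both strands, the core being part of every TonE match. None of these 3 patterns was found in the windows of Slc5a3, Nfat5 or Slc38a2, which says only that the letters are not in these 300 bases. The first of the 5 windows of Slc6a12 held 1 TonE match, 75 bases before the start, and the other 4 held none. Among all 32851 promoter windows of the same length, 4.96% held a TonE match, 21.4% the core and 7.86% the heat shock element. The windows of Slc5a3, Nfat5 and Slc38a2 were rich in G and C (73.3%, 72.0% and 73.0%), while the first window of Slc6a12 was at 55.7%. The table of windows matched 4 of the 6 members, without Slc6a6 and Akr1b3.

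Slc5a3, the sodium/myo-inositol cotransporter (ENSMUSG00000089774; GRCm38 chromosome 16, 92058322 to 92087473, plus strand), varied the most between mice among the 5 tested members. Its level in KO replicates 1 to 5 was 20.1, 12.3, 11.3, 10.7 and 10.7 CPM, and in WT replicates 1 to 5 it was 5.86, 12.3, 13.5, 7.34 and 9.25 CPM. The KO male was the highest of all 10 mice, the 2 WT males stood at the top of the 4 KO females or above them, and the 3 WT females were the lowest, so that the ranges of the 2 genotypes overlapped. The means were 13.0 ± 4.01 CPM across KO and 9.65 ± 3.23 CPM across WT mice (SD over 5 each), and with sex in the fit the log2 fold change of KO over WT was 0.60 (SE 0.10). Within females the genotypes did not overlap, with 11.3 ± 0.736 CPM in KO (10.7 to 12.3, SD, n = 4) and 7.48 ± 1.70 CPM in WT mice (5.86 to 9.25, SD, n = 3). In whole lung, a larger number of cells that express a gene and more of its RNA in each cell cannot be told apart. The values rest on 129 to 511 counts per mouse.

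**Figure D1:**
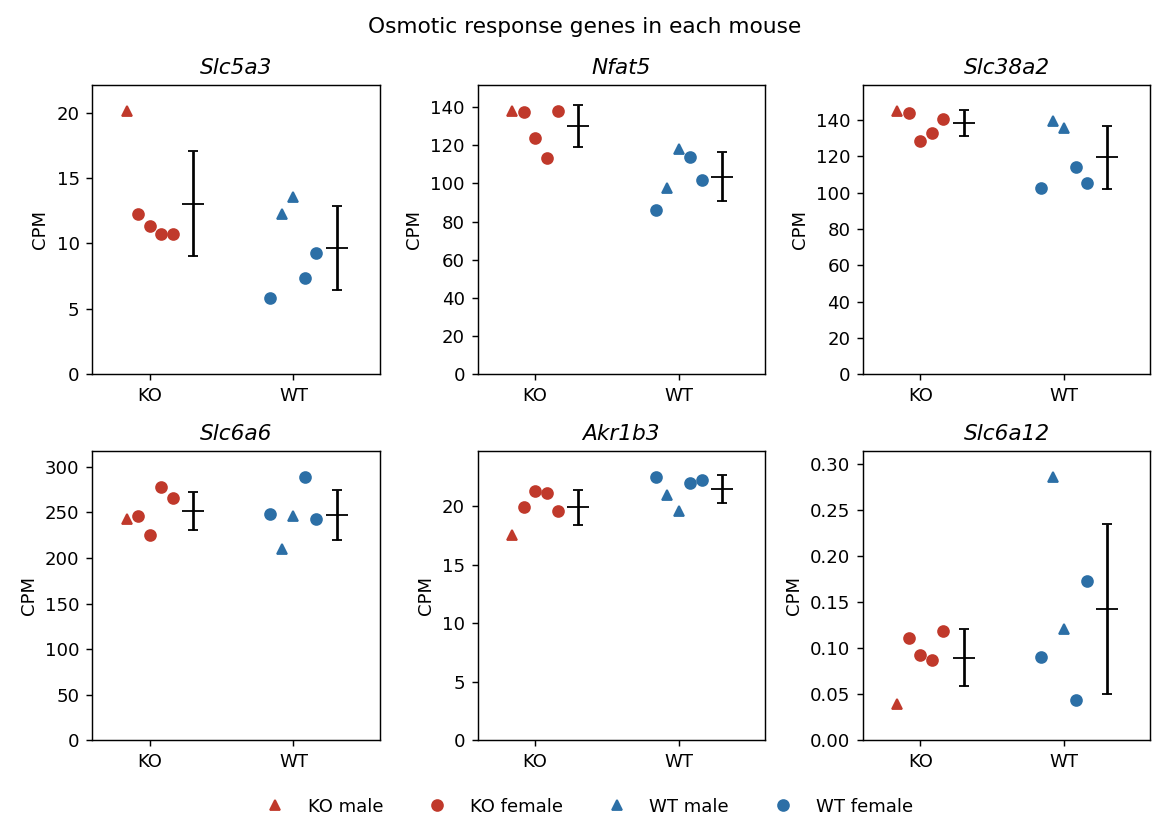
Level of each gene (CPM, linear axis from 0) in the 5 KO and 5 WT mice, with triangles for males and circles for females, and the mean and SD of each genotype beside the points. Slc5a3 was highest in the KO male at 20.1 CPM and lowest in the WT females, and Slc6a12 stayed at or under 0.286 CPM in every mouse.

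Males had more Slc5a3 RNA than females. The 3 males read 15.3 ± 4.22 CPM (SD, 12.3 to 20.1) and the 7 females 9.64 ± 2.31 CPM (SD, 5.86 to 12.3), and within each genotype every male was above every female. The lowest male, WT replicate 2, and the highest female, KO replicate 2, were level. With genotype in the fit, the log2 fold change of males over females was 0.80 (SE 0.11, edgeR quasi-likelihood adjusted p 0.00859 over all tested genes). In this comparison 0.449% of tested genes were called higher in males and 0.133% lower, and Slc5a3 was the only one of the 5 tested members to be called. The call held without KO replicate 5 (0.79, adjusted p 0.0114), where 93 genes were called in place of 105. It was lost without KO replicate 1 (0.78, adjusted p 0.114), which leaves no KO male, and without the genotype term (0.67, adjusted p 0.252). Without KO replicate 1 no tested gene at all was called between the sexes, and without the genotype term 41 were. The members were chosen on variation between these same mice, so the sex difference of Slc5a3 is not independent of that choice. The alveolar type 1 marker list, given above, and heat shock genes, given further on, also read higher in males. Of its 5 genes, Rtkn2 was called (284.4 ± 7.93 CPM in males and 229.6 ± 13.0 CPM in females, SD, edgeR adjusted p 0.0197), also without KO replicate 5. That call was lost without KO replicate 1, KO replicate 2 or WT replicate 2 and without the genotype term. The part of these genes in the Slc5a3 difference was not tested.

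Slc5a3 lies inside Mrps6, a gene for a protein of the mitochondrial ribosome (ENSMUSG00000039680; chromosome 16, 92058270 to 92112227, plus strand), and shares 159 exonic bases with it on the same strand. A second protein-coding gene on that strand, Gm49711 (92058316 to 92187341), also shares 159 exonic bases with Slc5a3 and was not used here. The promoter windows of Slc5a3 and Mrps6 start 14 bases apart and share 286 of 300 bases. Mrps6 read 18.3, 13.6, 16.1, 15.8 and 11.8 CPM in KO replicates 1 to 5 and 15.98, 21.2, 16.7, 13.9 and 13.8 CPM in WT replicates 1 to 5. The genotypes overlapped, and the log2 fold change of KO over WT was -0.03 (SE 0.10, edgeR quasi-likelihood adjusted p 0.910), a sign that turned under 4 alternative settings. The 3 males (18.7 ± 2.27 CPM, SD) lay above the 7 females (14.4 ± 1.601 CPM, SD), with a log2 fold change of 0.37 (SE 0.10) that did not pass the test (edgeR quasi-likelihood adjusted p 0.126, and 0.34 without KO replicate 5, adjusted p 0.146). The correlation of log2 CPM between Slc5a3 and Mrps6 over the 10 mice was 0.38, and -0.39 on the residuals after genotype and sex. Whether Slc5a3 and Mrps6 differ in their response was not tested, and reads from the shared bases cannot be assigned to one gene by position.

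Nfat5, the transcription factor of the set (ENSMUSG00000003847; chromosome 8, 107293470 to 107379517, plus strand), read 137.8, 137.7, 124.0, 113.4 and 137.9 CPM in KO replicates 1 to 5. In WT replicates 1 to 5 it read 86.1, 97.5, 118.3, 114.1 and 101.9 CPM. KO replicates 1, 2 and 5 were at nearly the same level. Every KO mouse except replicate 4 was above every WT mouse, and replicate 4 lay within the WT range, so that the genotypes overlapped, also within females. The means were 130.2 ± 11.1 CPM across KO and 103.6 ± 13.0 CPM across WT mice (SD over 5 each), and the log2 fold change was 0.35 (SE 0.09). With offsets for exon length and GC content the value was 0.16. Males and females did not separate (log2 fold change 0.10, SE 0.09, edgeR quasi-likelihood adjusted p 0.652, and 0.12 without KO replicate 5, adjusted p 0.622).

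Slc38a2, a neutral amino acid transporter that hypertonic medium and amino acid shortage both induce in cultured cells (ENSMUSG00000022462; chromosome 15, 96687392 to 96699730, minus strand), had a pattern close to that of Slc5a3. It read 144.9, 144.1, 128.7, 132.7 and 140.6 CPM in KO replicates 1 to 5 and 102.5, 139.5, 135.4, 114.4 and 105.2 CPM in WT replicates 1 to 5. The 3 WT females were again the lowest and the 2 WT males stood among the KO mice. The means were 138.2 ± 7.18 CPM across KO and 119.4 ± 17.1 CPM across WT mice (SD over 5 each), and the log2 fold change was 0.27 (SE 0.06), which became 0.18 with offsets for exon length and GC content. Within females the genotypes did not overlap (128.7 to 144.1 CPM in KO, 102.5 to 114.4 CPM in WT). The 3 males read 139.9 ± 4.77 CPM and the 7 females 124.0 ± 16.8 CPM (SD), and their log2 difference of 0.25 (SE 0.07) did not pass the edgeR quasi-likelihood test (adjusted p 0.104), though it did by the DESeq2 Wald test (adjusted p 0.0219). Without KO replicate 5 it was 0.26 (edgeR adjusted p 0.121).

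Slc6a6, the taurine transporter (ENSMUSG00000030096; chromosome 6, 91684053 to 91759066, plus strand), read 242.5, 245.9, 224.9, 278.2 and 266.4 CPM in KO and 247.9, 210.4, 245.9, 288.8 and 243.2 CPM in WT replicates 1 to 5. The 2 genotypes covered nearly the same range. Means were 251.6 ± 20.95 and 247.2 ± 27.9 CPM (SD over 5 each), and the log2 fold change was 0.00 (SE 0.07), with values of either sign, -0.06 to 0.06, over the alternative settings. Sex did not separate the mice either (log2 fold change of males over females -0.14, SE 0.08, edgeR quasi-likelihood adjusted p 0.454, and -0.13 without KO replicate 5, adjusted p 0.513). An opposite-strand gene of 1 to 12 counts per mouse, Gm44981, shares 117 exonic bases with Slc6a6.

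Akr1b3, aldose reductase (ENSMUSG00000001642; chromosome 6, 34302434 to 34317478, minus strand), went the other way from Slc5a3. It read 17.6, 19.9, 21.3, 21.2 and 19.6 CPM in KO and 22.5, 21.01, 19.6, 22.0 and 22.3 CPM in WT replicates 1 to 5. The KO male, which was highest for Slc5a3, was lowest for Akr1b3, and the 3 WT females were the highest. Means were 19.9 ± 1.51 CPM across KO and 21.5 ± 1.20 CPM across WT mice (SD over 5 each), and the log2 fold change was -0.14 (SE 0.06), which became -0.21 with offsets for exon length and GC content. Within females the genotypes did not overlap (19.6 to 21.3 CPM in KO, 22.0 to 22.5 CPM in WT). The log2 fold change of males over females was -0.17 (SE 0.06, edgeR quasi-likelihood adjusted p 0.216, and -0.18 without KO replicate 5, adjusted p 0.232). Akr1b3 has close relatives and pseudogene copies, among which an estimated count can be divided.

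Slc6a12, the betaine transporter (ENSMUSG00000030109; chromosome 6, 121343076 to 121365775, plus strand), was at the limit of detection. It had 1, 3, 2, 2 and 3 counts in KO replicates 1 to 5 and 2, 6, 3, 1 and 5 counts in WT replicates 1 to 5. Only WT replicates 2 and 5 lay above 3 counts, the smallest number taken here as detected (0.104 to 0.143 CPM, counting error only). No difference between genotypes could be read at this depth, and no fold change is given.

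Over all 10 mice, 0 of the 5 tested members separated the genotypes, where 1.88% of all tested genes did. Within females, Slc5a3 and Slc38a2 were higher in every KO mouse and Akr1b3 was lower in every KO mouse. Among all tested genes, 6.27% separated the 4 KO from the 3 WT females with higher KO values and 6.21% with lower KO values. These counts use the contrast on which the members were chosen and support nothing by themselves.

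Per kilobase of exon, the members kept a fixed order in every mouse. Slc6a6 had the highest level at 29.5 ± 2.76 CPM per kb (SD, n = 10), followed by Slc38a2 at 14.6 ± 1.79, Nfat5 at 6.36 ± 0.982, Akr1b3 at 2.47 ± 0.183, Slc5a3 at 1.04 ± 0.355 and Slc6a12 at 0.0381 ± 0.0232. The ranges of neighbours in this order did not overlap, the nearest being Slc5a3 (0.537 to 1.84 CPM per kb) and Akr1b3 (2.09 to 2.69 CPM per kb). The taurine transporter was thus the most abundant member per kilobase, and the inositol transporter the least abundant of the 5 tested. The lengths used include exons of rare transcripts, which lowers the per-kilobase level of genes that have many. The coefficient of variation of the level over the 10 mice was 34.1% for Slc5a3, 15.4% for Nfat5, 12.3% for Slc38a2, 9.36% for Slc6a6 and 7.40% for Akr1b3.

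The members did not vary as 1 block. Over the 10 mice, Pearson's r of log2 CPM with Slc5a3 was 0.83 for Slc38a2 (rho 0.81), 0.67 for Nfat5 (rho 0.50), -0.35 for Slc6a6 (rho -0.53) and -0.88 for Akr1b3 (rho -0.85). Covariation was 1 of the grounds on which the members were chosen, so no p is given. Slc38a2 was high and Akr1b3 low in the mice with much Slc5a3. Nfat5 followed less closely: WT replicate 2, at 12.3 CPM of Slc5a3 and 139.5 CPM of Slc38a2, had the second lowest Nfat5 level of the 10 mice (97.5 CPM). Between other members, r was 0.74 for Nfat5 with Slc38a2, -0.75 for Nfat5 with Akr1b3 and -0.80 for Akr1b3 with Slc38a2. Leaving out the 2 mice farthest from the median of Slc5a3, r was 0.76 for Slc38a2, -0.72 for Akr1b3 and 0.20 for Nfat5. This narrows the range of Slc5a3 and so cannot show what a relation rests on. For Nfat5, r was 0.59 without KO replicate 1, 0.46 in KO mice alone and 0.54 in WT mice alone.

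**Figure D2:**
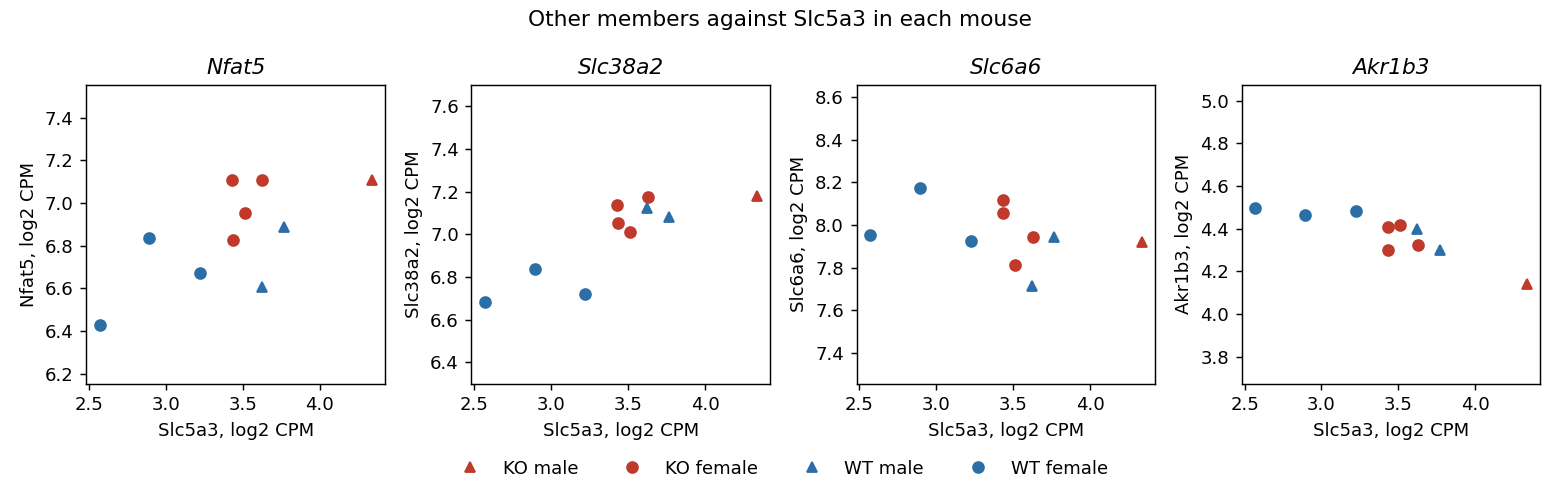
Level of Nfat5, Slc38a2, Slc6a6 and Akr1b3 against that of Slc5a3 (both log2 CPM) in each of the 10 mice, each vertical axis covering the same span. Slc38a2 (r 0.83) was higher and Akr1b3 (r -0.88) lower in mice with more Slc5a3, with a looser relation for Nfat5 (r 0.67), with the KO male at the right end and a WT female at the left end of every panel.

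Much of this covariation ran along genotype and sex. On the residuals after both, r with Slc5a3 was 0.10 for Slc38a2, -0.23 for Akr1b3, -0.08 for Slc6a6 and 0.55 for Nfat5, where the interquartile range of all tested genes was -0.32 to 0.32. Within the 7 females alone, r was 0.84 for Nfat5, 0.84 for Slc38a2 and -0.75 for Akr1b3. The residual r of Nfat5 with Akr1b3 was -0.71. Among all 18023 other tested genes, the median r with Slc5a3 was -0.02 with an interquartile range of -0.39 to 0.36. An r at least that of Slc38a2 was seen in 252 genes (1.398%), at least that of Nfat5 in 1373 genes (7.62%) and at most that of Akr1b3 in 83 genes (0.461%).

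Genes outside the set varied with Slc5a3 more closely over these mice than any member did. The 10 with the highest r were Usp47 (0.95), Gm26540 (0.95), Slx4 (0.95), Ccar1 (0.95), Emsy (0.95), Krit1 (0.94), Sap130 (0.94), Tbc1d12 (0.94), Sytl2 (0.94) and Il18r1 (0.93). The 5 with the most negative r were Pik3ip1 (-0.97), Rnaseh2a (-0.97), Sp5 (-0.97), Hmgn2 (-0.97) and Gpr19 (-0.96). On the residuals after genotype and sex, r was 0.54 to 0.90 in the first 10 and -0.86 to -0.69 in the last 5. These genes were picked as the extremes of r among 18023 genes over the same 10 mice. Strong values of r and residual r follow in part from that choice. Slc5a3 is a long gene (10913 exonic bases), and the 10 most alike had a median exon length of 9823 bases against 3060 bases in the 5 most opposite and 3787 bases over all tested genes.

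A pair of measures of each mouse was set beside Slc5a3. The first is the median deviation of genes at or above the upper quartile of exon length minus that of genes at or under the lower quartile, on the log2 scale, which ran from -0.03 to 0.14 in KO mice and from -0.23 to 0.07 in WT mice, with means of 0.07 and -0.08. It was lowest in WT replicate 1 (-0.23), the mouse with the least Slc5a3. The next lowest was WT replicate 2 (-0.148), which had 12.3 CPM of Slc5a3. The highest was KO replicate 5 (0.135), at 10.7 CPM of Slc5a3. The second is the mean log2 CPM of 10 heat shock genes, which was 6.95 to 7.50 in the 3 males and 6.16 to 6.71 in the 7 females and highest in the KO male, the mouse with the most Slc5a3. On this measure WT replicate 1, with the least Slc5a3, was at 6.475, above KO replicate 5 at 6.347. With offsets for exon length and GC content the Slc5a3 log2 fold change of KO over WT was 0.47 in place of 0.60. The part of heat shock in the Slc5a3 values was not tested.

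**Figure D3:**
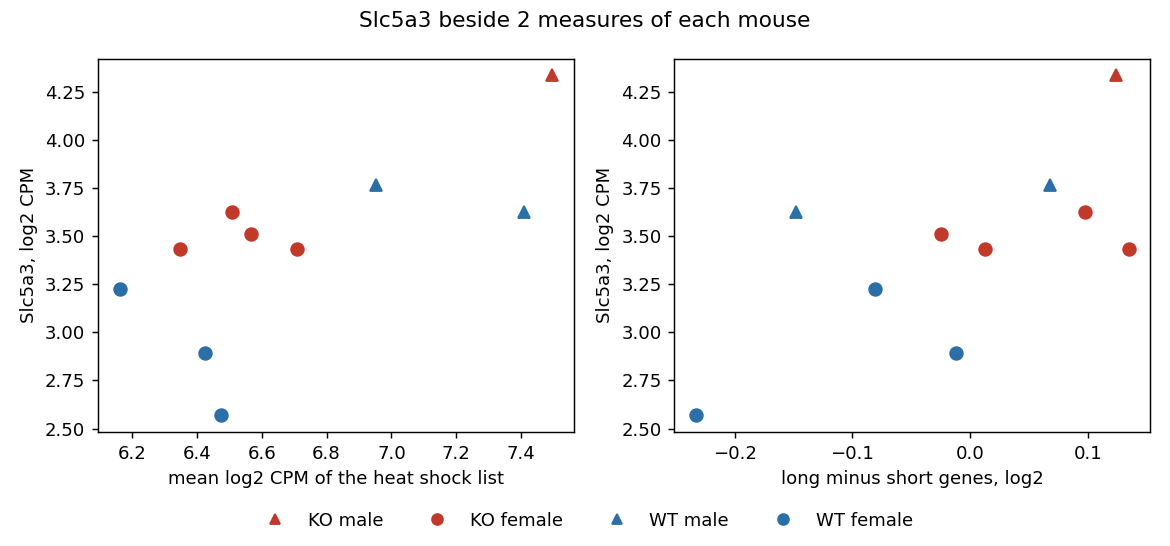
Slc5a3 (log2 CPM) in each mouse against the mean log2 CPM of 10 heat shock genes (left) and against the difference between long and short genes on the log2 scale (right). The 3 males lie at 6.95 to 7.50 on the heat shock axis, above all 7 females. WT replicate 1 has the lowest Slc5a3 and the lowest difference between long and short genes (-0.23). WT replicate 2, next lowest in that difference (-0.148), has more Slc5a3 than any WT female.

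Beside the members, 96 genes in 7 lists of osmolyte handling, NFAT5 signalling, cell volume and amino acid response were read from the same fit, and 88 of them were tested. None was called between KO and WT at an adjusted p under 0.05 by edgeR, where 0.0222% of all tested genes were called. At an unadjusted p under 0.05, 15 were higher and 7 lower in KO, 17.0% and 7.95% of the 88, beside 8.92% and 8.04% of all tested genes. With no filter on low counts edgeR called Ptgs2 (adjusted p 0.0443), where 50 of 30722 genes were called. Limma-voom called 0 of the 88, while the DESeq2 Wald test called 4, all higher in KO: Atf3, Hspa1a, Hspa1b and Ptgs2. Among all 18024 tested genes limma-voom called 2 and the DESeq2 Wald test 346, of which 253 were higher and 93 lower in KO. The median log2 fold change of the 88 was 0.01, beside -0.003 over all tested genes.

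**Figure D4:**
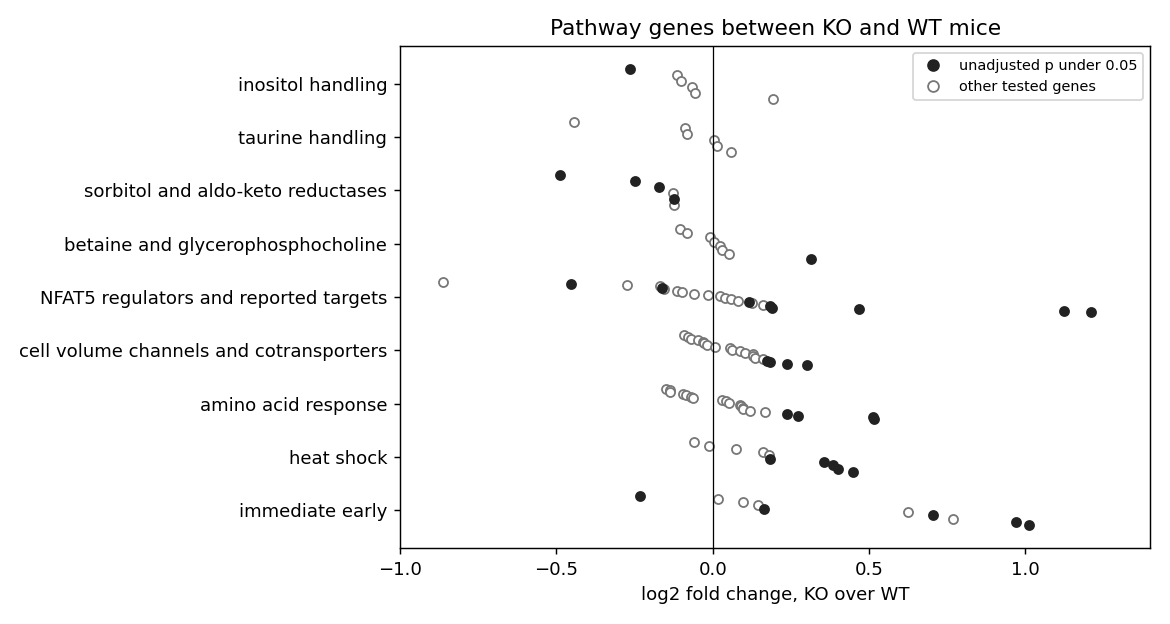
Log2 fold change of KO over WT for each tested gene of 9 lists, with filled points for an unadjusted edgeR p under 0.05. The 6 genes of sorbitol handling and aldo-keto reductases all lie below 0 with a median of -0.15, and the heat shock (median 0.18) and immediate early (median 0.39) lists lie mostly above 0.

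Of 6 tested inositol genes 1 had an unadjusted p under 0.05, a share of 16.7% beside 17.0% of all tested genes. This was Impa2, an inositol monophosphatase, at 4.04 ± 0.456 CPM across KO mice and 4.79 ± 0.350 CPM across WT mice (SD over 5 each, log2 fold change of KO over WT -0.26, edgeR adjusted p 0.245). The inositol transporter gene Slc5a11 and the inositol oxygenase gene Miox were too low to test. Isyna1, which makes an inositol phosphate from glucose 6-phosphate, read 51.9 ± 4.74 and 55.8 ± 4.33 CPM (log2 fold change -0.10). Of 6 tested taurine genes 0 had an unadjusted p under 0.05, beside the same 17.0% of all tested genes.

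All 6 other sorbitol and aldo-keto reductase genes had negative values, like Akr1b3, with 4 at an unadjusted p under 0.05. This is a share of 66.7% lower in KO, beside 8.04% of all tested genes. Their median exon length was 2074.5 bases, beside 3787 over all tested genes. Khk, ketohexokinase, read 12.7 ± 0.665 CPM across KO mice and 14.7 ± 1.45 CPM across WT mice (SD over 5 each, log2 fold change of KO over WT -0.25, edgeR adjusted p 0.132). Sord, which turns sorbitol into fructose, had a value of -0.17 (adjusted p 0.239), Akr1b7 of -0.49 (adjusted p 0.272) and Akr1a1 of -0.12 (adjusted p 0.286). With offsets for exon length and GC content the values were -0.16 for Khk, -0.10 for Sord, -0.07 for Akr1a1 and -0.40 for Akr1b7. These 4 values moved towards 0, while that of Akr1b3 moved away from it. Among 8 tested betaine and glycerophosphocholine genes only Chdh, which makes betaine aldehyde from choline, had an unadjusted p under 0.05 (log2 fold change 0.31, edgeR adjusted p 0.210). This is a share of 12.5%, beside 17.0% of all tested genes.

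Of 22 tested regulators and reported targets of NFAT5, 6 were higher and 2 lower in KO at an unadjusted p under 0.05. These are shares of 27.3% and 9.09%, beside 8.92% and 8.04% of all tested genes. Of the 6 higher genes, 3 are chaperones that belong to heat shock as well: Hspa1a, Hspa1b and Hspa4l (log2 fold change 0.19, edgeR adjusted p 0.222). Ptgs2, the inducible cyclooxygenase, read 11.1 ± 1.39 CPM across KO mice and 8.19 ± 0.780 CPM across WT mice (SD over 5 each, log2 fold change of KO over WT 0.47, edgeR adjusted p 0.0911, or 0.0443 with no filter on low counts). The near-identical Hsp70 genes Hspa1a (1.21, adjusted p 0.125) and Hspa1b (1.12, adjusted p 0.165) share reads, and Map2k3, a kinase above p38, had a value of -0.16 (adjusted p 0.202). In the sex comparison 3 of the 22 were called, all higher in males, where 0.449% of all tested genes were called higher. Hspa4l, an Hsp110 family chaperone, read 117.9 ± 21.1 CPM in the 3 males and 70.3 ± 4.95 CPM in the 7 females (SD; log2 fold change 0.79, edgeR adjusted p 0.00157), and Hspa1a (1.98, adjusted p 0.0164) and Hspa1b (2.73, adjusted p 0.0111) were the other 2. All 3, which are chaperones and belong to heat shock as well, were called without KO replicate 5. None was called without KO replicate 1, the KO male, where no tested gene at all was called. Without KO replicate 2 or without WT replicate 2, 2 of the 3 were called.

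Of 20 cell volume genes 4 were higher in KO at an unadjusted p under 0.05 and 0 lower. The share higher was 20%, beside 8.92% of all tested genes, where 8.04% were lower. The median exon length of the list was 6038 bases, beside 3787 over all tested genes. Wnk1, the kinase that controls the cation-chloride cotransporters, read 481 ± 57.1 CPM across KO mice and 398.5 ± 54.4 CPM across WT mice (SD over 5 each, log2 fold change of KO over WT 0.30, edgeR adjusted p 0.170). Lrrc8b (0.24, adjusted p 0.194) and Lrrc8c (0.18, adjusted p 0.221) encode subunits of the volume-regulated anion channel, and Piezo1 (0.18, adjusted p 0.226) a stretch-activated channel. With offsets for exon length and GC content the value was 0.12 for Wnk1, 0.18 for Lrrc8b, 0.11 for Lrrc8c and 0.10 for Piezo1.

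Of 20 amino acid response genes, the other known control of Slc38a2, 4 were higher in KO at an unadjusted p under 0.05 and 0 lower. The share higher was 20%, beside 8.92% of all tested genes, where 8.04% were lower. Atf3, a stress-induced transcription factor, read 12.5 ± 2.12 CPM across KO mice and 8.49 ± 1.16 CPM across WT mice (SD over 5 each, log2 fold change of KO over WT 0.51, edgeR adjusted p 0.121). Slc7a1 (0.24, adjusted p 0.192), Ddit4 (0.52, adjusted p 0.241) and Slc38a4 (0.27, adjusted p 0.266) were the others. Slc38a4 was at 0.16 without WT replicate 1, and Slc7a1 at 0.14 with offsets for exon length and GC content. With Slc5a3 over the 10 mice, r was 0.09 for Atf3, 0.20 for Slc7a1, -0.04 for Ddit4 and 0.63 for Slc38a4. The median r of the tested genes of this list was 0.18.

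Heat shock and immediate early genes were read as values beside the members. Of 10 heat shock genes 5 were higher in KO at an unadjusted p under 0.05, a share of 50% beside 8.92% of all tested genes. Among them were Dnaja1 (log2 fold change 0.40, edgeR adjusted p 0.134), Chordc1 (0.36, adjusted p 0.134), Dnajb1 (0.38, adjusted p 0.142) and Bag3 (0.18, adjusted p 0.226). Without KO replicate 1 the value was 0.22 for Chordc1 and 0.075 for Bag3, and with offsets for exon length and GC content it was 0.21 for Chordc1. Among all tested genes 0.449% were called higher in males. In the sex comparison 7 of the 10 were called, all higher in males: Hsph1 (1.66), Dnaja1 (1.04), Chordc1 (0.94), Hsp90aa1 (0.92), Dnajb1 (0.72), Hspd1 (0.60) and Bag3 (0.46), with edgeR adjusted p from 0.00159 to 0.0197. All 7 were called without KO replicate 5, 0 without KO replicate 1, 6 without KO replicate 2 and 5 without WT replicate 2. Without KO replicate 1 no tested gene at all was called between the sexes. The median r of this list with Slc5a3 was 0.70, beside 0.06 for the 10 immediate early genes. On the residuals after genotype and sex, r was negative for every heat shock gene except Chordc1, from -0.80 (Hspa8) to 0.39 (Chordc1). For the immediate early genes it ran from -0.80 (Fosb and Dusp1) to 0.11 (Ier3). Of the 10 immediate early genes, 4 were higher and 1 lower in KO at an unadjusted p under 0.05. The shares were 40% and 10%, beside 8.92% and 8.04% of all tested genes. Nr4a1 read 69.3 ± 19.1 CPM across KO mice and 32.3 ± 6.28 CPM across WT mice (SD over 5 each, log2 fold change of KO over WT 0.97, edgeR adjusted p 0.0911), Fosb had a value of 1.01 (adjusted p 0.168), Jun of 0.16 (adjusted p 0.239) and Ier3 of -0.23 (adjusted p 0.155). Jun was at 0.10 without WT replicate 5, and Ier3 at -0.13 with offsets for exon length and GC content. Of the genes named from these 2 lists, the DESeq2 Wald test called Dnaja1, Chordc1, Dnajb1, Nr4a1 and Fosb between KO and WT, all higher in KO. That test called 253 of all 18024 tested genes higher in KO and 93 lower.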

How the data were processed

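RNA was measured in 1 lung lobe of each of 5 KO and 5 WT mice. Estimated counts of 47333 genes, unscaled between samples, make up the single table the authors deposited, and 0 of its columns lacked a sample. Per the submitters' processing notes the tools were FastQC, MultiQC, STAR 2.6.0 and Salmon 0.9.1 and the builds mm10 and GRCm38. Their roles, the annotation and any filter are not given in the sources used here. Per the labels' protocols the libraries came from a KAPA stranded mRNA kit and were read as single reads on an Illumina HiSeq instrument. Of the deposited non-zero estimated counts 30.1% lay more than 0.01 from a whole number, so genes with similar copies can share reads. Identifiers were given symbols, positions and exon lengths from GENCODE M21 (GRCm38), to which 47281 identifiers matched and 52 did not.

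Estimated counts were rounded to whole numbers. CPM used library totals with TMM scaling (trimmed mean of M-values in edgeR). Totals ran from 21357452 to 28321361, so that 3 counts equalled 0.104 to 0.143 CPM. This floor covers counting error only, because without molecular identifiers several reads can come from 1 molecule. All 20 pairs of mice within a genotype differed by more than sampling noise (chi-square per degree of freedom 5.91 to 40.3). Genes kept by filterByExpr (minimum count 10, minimum total 15), 18024 in all, were fitted with edgeR's quasi-likelihood test (edgeR 4.0.16, R 4.3.3), with genotype and sex as additive terms and Benjamini-Hochberg adjustment. Tests were two-sided and genes were called at an adjusted p under 0.05. SE is the size of the log2 fold change over the root of its F statistic. Correlations used log2 CPM with a prior count of 2. The scripts were tested on simulated data.

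The members and gene lists were chosen with earlier results of these data known. Named genes were the members, Mrps6, Bpifb1, up to 4 genes per list with the smallest p for genotype where the unadjusted p was under 0.05, list genes called for genotype or sex, and the 10 genes most and 5 least like Slc5a3. Isyna1, Sftpc, Scgb1a1 and list genes too low to test were named after their values were seen. Alternatives were DESeq2 size factors, other filters, limma-voom (limma 3.58.1), the Wald test of DESeq2 1.42.0, dropped covariates, females alone and leaving out each mouse. Offsets for exon length and GC content (lowess, span 0.3) were added after the data were seen. Replicate numbers were given in accession order and link no KO mouse to a WT mouse. Each mouse is a separate sample, but the labels name no litter, cage or sequencing batch.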

Additional observations from a re-analysis of the deposited data

Results flagged for a closer look

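Slc5a3 in KO replicate 1 stood apart from the other KO mice. It was at 20.12 CPM, while the other 4 KO mice lay between 10.71 and 12.27 CPM, a gap of 0.834 of the group's whole range. KO replicate 1 is the only KO male. In all, 21 sets of values were examined for a mouse standing apart in this way and 1 stood out, where chance alone gives about 1.05.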

How the results depend on the processing

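The log2 fold change of KO over WT kept its sign over 18 alternatives in Slc5a3 (0.43 to 0.72), Nfat5 (0.16 to 0.42), Slc38a2 (0.18 to 0.35) and Akr1b3 (-0.21 to -0.11), and took both signs in Slc6a6. Slc5a3 was at 0.58 in females alone and 0.62 without KO replicate 5. The sex difference of Slc5a3 was 0.67 to 0.90 over 17 alternatives and passed in 15 (adjusted p from 1.51e-07 to 0.252). Without the sex term the KO over WT values fell from 1.12 to 0.66 in Hspa1b, 0.40 to 0.22 in Dnaja1, 0.38 to 0.25 in Dnajb1, 0.36 to 0.21 in Chordc1 and 0.18 to 0.11 in Bag3. Mrps6 turned from -0.03 to 0.068 with offsets for exon length and GC content, and ran from -0.072 to 0.026 without each mouse in turn (above 0 without KO replicate 5, WT replicate 1 and WT replicate 2), and its sex difference passed with the offsets (0.42, adjusted p 0.0287). The 4 genes called between KO and WT became 50 with no filter, 346 by the DESeq2 Wald test, 2 by limma-voom and 2 to 18 without 1 mouse, the most without WT replicate 3. Bpifb1 ranged from -6.97 to -6.35 and passed in 9 of 18 alternatives. The 105 genes called between the sexes became 197 with no filter, 436 by the DESeq2 Wald test, 41 without the genotype term, 250 with the offsets, and 0 to 195 without 1 mouse, with 0 (1919 at an unadjusted p under 0.05) without KO replicate 1 and 195 without WT replicate 4. The median r of the 4 other tested members with Slc5a3, 0.16, became -0.012 by Spearman, 0.012 on residuals, 0.06 in KO and -0.001 in WT mice alone, and -0.015 (without WT replicate 1) to 0.275 (without WT replicate 4) without 1 mouse. The cause of these shifts was not tested.

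The pathway genes at an unadjusted p under 0.05 numbered 10 to 17 higher and 3 to 10 lower in KO over the alternatives. Among all tested genes (16285 to 30722 by setting), 1021 to 1930 were higher and 854 to 1849 lower. No paired analysis was possible because replicate numbers pair no mice. With 1 KO male, genotype and sex rest on few mice in common, and an interaction was not tested. Slc6a12 was below what this depth can compare.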
